A study of Mus musculus with 40 samples.

Results

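The smooth muscle contractile genes described here are Acta2, Myh11, Tagln, Cnn1, Myocd, Smtn, Lmod1, Mylk, Des, and Synpo2. They were chosen by symbol for their known roles, with earlier results of these data known and no threshold on measured values, and all 10 are listed in both expression tables, among 17402 genes in the genotype experiment, 15399 in the CsA experiment, and 17809 in either. All 10 passed the filter on low values in both experiments.

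Vascular smooth muscle cells contract when myosin light chain kinase phosphorylates the myosin light chain and lets smooth muscle myosin pull on actin filaments. The genes of this apparatus share control by serum response factor, which binds the CArG box in DNA, and by its coactivators myocardin and the myocardin-related factors. Their expression is high in the media of a healthy artery and is lost when the cells take on a synthetic state. Angiotensin II (Ang-II) is a vasoconstrictor hormone, and calcineurin (Cn) is a phosphatase activated by calcium, made of a catalytic CnA and a regulatory CnB subunit.

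Libraries were made from whole aortas of male mice, cleared of adventitia and perivascular tissue, with 3 aortas pooled in each library, so the spread between libraries is that between pools. In the genotype experiment, the labels give all mice floxed CnB1 alleles (gene Ppp3r1), and all received tamoxifen, 1 mg daily for 5 days from 10 to 12 weeks of age. By these labels, mice without Cre are called Cn-Ctl and mice with Myh11-CreERT2 SM-Cn-/-. The study's methods also count mice with Myh11-CreERT2 and wild-type CnB1 among the Cn-Ctl controls. The promoter that drives Cre belongs to Myh11, itself one of the 10 genes, and Cre acts in the cells that use it. After a further 6 weeks the mice were left untreated or received Ang-II by minipump (1 µg/kg/min) for 2, 6, or 24 h. There were 3 libraries per group, except for 2 in untreated Cn-Ctl and 2 in Cn-Ctl at 24 h. Those with n = 2 carry replicate numbers 2 and 3. In the CsA experiment, C57BL/6J mice (WT) and C57BL/6J mice given the Cn inhibitor cyclosporin A (5 mg/kg/day) for 5 days by minipump (CsA) were left untreated or received Ang-II for 2 or 24 h, with 3 libraries in each of 6 groups. The WT mice had no CsA pump, so the drug and its pump cannot be told apart. By the study's methods, control mice had surgery without a minipump, so Ang-II and its pump cannot be told apart either. Untreated here means without Ang-II. Treated Cn-Ctl, WT, and CsA mice entered only with a systolic pressure above 130 mmHg, whereas SM-Cn-/- mice were not selected on pressure. By the methods, SM-Cn-/- mice in which CnB1 deletion could not be shown, and CsA mice in which inhibition could not be shown in the thymus, were removed.

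Values are the deposited signal, a scaled read number per gene, from libraries of 2.73 to 10.25 M reads (genotype experiment) and 18.98 to 38.9 M reads (CsA experiment). No smooth muscle marker on a list of 14 was at 0 reads in any library. The targeted gene Ppp3r1 overlapped between genotypes, at 45.7 to 134 in Cn-Ctl and 41.8 to 118 in SM-Cn-/-, and gene-level values cannot tell a deleted from an intact allele. Rcan1, a Cn target, went from 27.6 and 45.4 in untreated Cn-Ctl to between 368 and 404 at 2 h, and stood at 31.7 to 55.3 in SM-Cn-/- at 2 h. It went from 30.7 to 45.2 in untreated WT to 234 to 349 at 2 h, and from 32.3 to 36.5 in untreated CsA to 101 to 163. So Rcan1 still rose under CsA, to values below those of WT at 2 h. In bulk tissue, fewer smooth muscle cells and less RNA per cell cannot be told apart.

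The CArG box is shown because it is the element these genes are best known to share, and because most of the group differed in the same direction between untreated CsA and WT aortas. RefSeq promoter windows (250 bases before to 50 after the start, GRCm38.p6) were found for 7 of the 10 genes, those other than Myh11, Tagln, and Myocd. The search took CC, 6 bases of A or T, and GG, which reads alike on both strands, with at most 1 mismatch inside the A/T core. An exact box stood in 535 of 32851 windows (1.63%), and a box with at most 1 mismatch in 3280 (9.98%). Among the 7 genes only the Acta2 window held any, with 1 mismatch each, their first bases 84 and 34 bases upstream of the RefSeq start. The gene span of Acta2 given below is from another annotation (GENCODE M21). It begins further upstream, so the printed stretch lies inside it. The Acta2 stretch is set beside those of Myl9, the regulatory myosin light chain, and Srf, serum response factor itself, because these hold exact boxes. The capitals mark the boxes, and sequences run 5′ to 3′ on the gene's strand.
Acta2, chr19:34255388-34255467, minus strand: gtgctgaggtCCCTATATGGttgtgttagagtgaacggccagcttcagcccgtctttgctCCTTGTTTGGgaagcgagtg
Myl9, chr2:156775293-156775384, plus strand: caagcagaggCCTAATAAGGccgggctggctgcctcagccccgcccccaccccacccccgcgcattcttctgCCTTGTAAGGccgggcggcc
Srf, chr17:46556205-46556254, minus strand: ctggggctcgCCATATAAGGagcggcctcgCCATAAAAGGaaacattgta
In Myl9 the box 161 bases upstream was exact and that 99 bases upstream had 1 mismatch. Both Srf boxes, 82 and 62 bases upstream, were exact. A match is a run of letters in this window and no evidence of binding.

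By role, the thin filament and its partners are represented by Acta2 (smooth muscle alpha-actin; chr19:34241090-34255590, minus strand), Tagln (transgelin, an actin-bundling protein; chr9:45929619-45936058, minus), and Cnn1 (calponin, an inhibitor of the actomyosin ATPase; chr9:22099216-22109630, plus). Smtn (smoothelin, bound to actin in contractile cells; chr11:3517523-3540612, minus) and Lmod1 (leiomodin, a nucleator of actin filaments; chr1:135324807-135368065, plus) complete this set. The motor and the kinase that activates it are represented by Myh11 (smooth muscle myosin heavy chain; chr16:14194535-14291372, minus) and Mylk (myosin light chain kinase; chr16:34745210-35002420, plus). The intermediate filament protein is Des (desmin; chr1:75360329-75368579, plus), and Synpo2 (synaptopodin-2, an actin-binding protein also called myopodin; chr3:123076519-123236149, minus) sits at dense bodies and the Z-disc. Myocd (myocardin; chr11:65176561-65269989, minus) is the coactivator. Positions are those of GRCm38. Tagln overlaps Pcsk7 on the opposite strand, whose mean signal was 31.9 in the genotype and 30.7 in the CsA experiment, against at least 3359 for Tagln. The noncoding neighbours that overlap Smtn and Synpo2 averaged at most 3.05.

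Levels were compared between genes only as signal per kb of exons. In untreated WT aortas, Acta2 was highest at 5567 ± 1166 per kb (mean ± SD, n = 3), then Tagln at 2997 ± 305 and Myh11 at 1063 ± 137. Cnn1 followed at 558, Smtn at 397, Lmod1 at 231, and Mylk at 143 per kb. Synpo2 (61.3 ± 8.51) and Des (59.7 ± 15.5) overlapped, and Myocd was lowest at 10.3 ± 1.52. In untreated Cn-Ctl, Acta2 stood at 6737 per kb and Myocd at 3.54 (n = 2), with Lmod1 and Mylk above Smtn there. Acta2 was the highest and Myocd the lowest of the 10 by mean in all 14 groups, although Acta2 overlapped Tagln in CsA at 24 h. The 10 genes together held 3.27 to 3.37% of all signal in untreated Cn-Ctl, 2.46 to 2.91% in untreated SM-Cn-/-, 3.18 to 4.07% in untreated WT, and 1.93 to 2.23% in untreated CsA libraries.

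**Figure D1:**
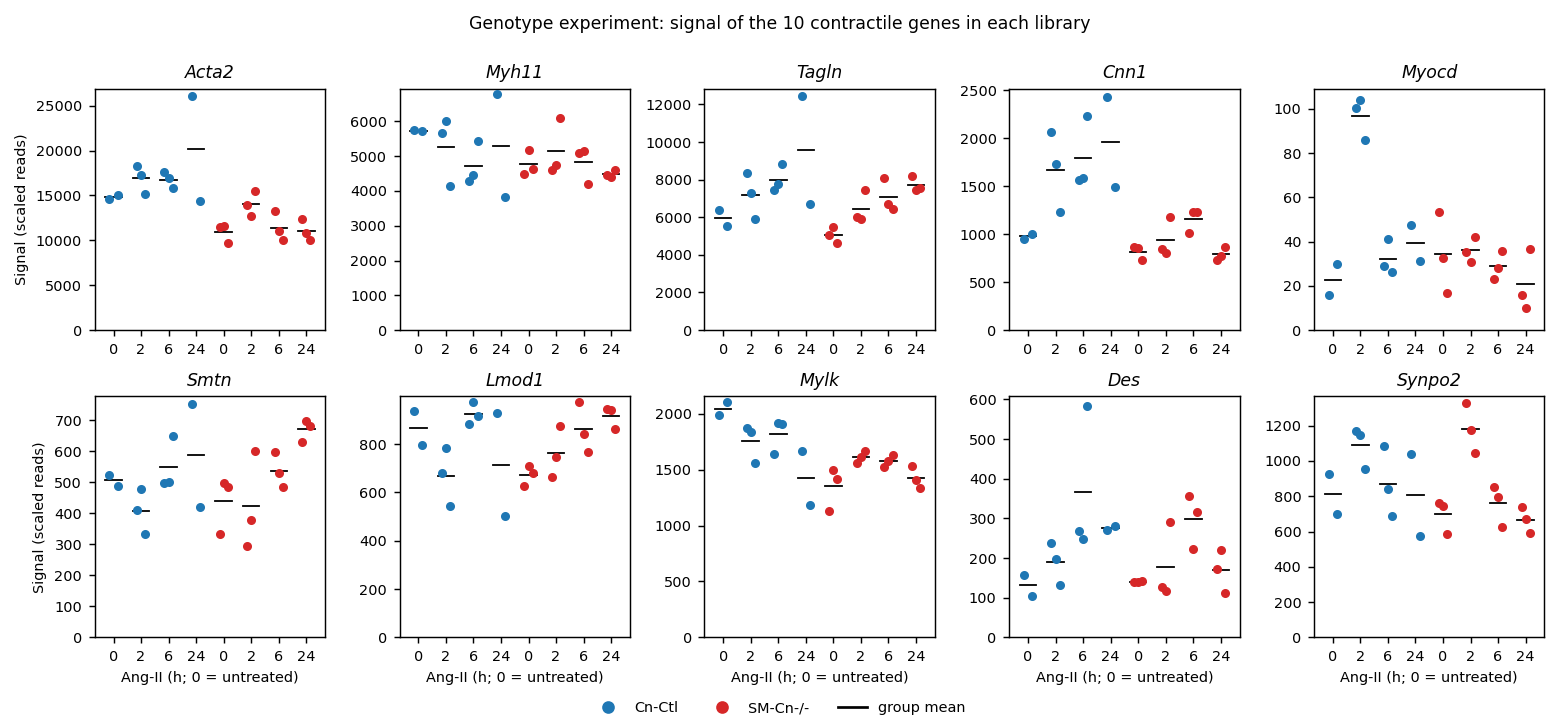
Signal (scaled reads, linear axis from 0) of each gene in each library of the genotype experiment, by hours of Ang-II (0 is untreated), with Cn-Ctl in blue, SM-Cn-/- in red, and group means as lines. Myocd stands between 85.8 and 104 in the 3 Cn-Ctl libraries at 2 h, above every other library, and Cnn1 in Cn-Ctl at 24 h (1490.0 and 2428) lies above all SM-Cn-/- libraries.

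In Cn-Ctl aortas under Ang-II, Myocd was higher at 2 h, Des at 6 h, and Cnn1 at 24 h. That is 1 of 10 at each time, where 6.23% of all genes tested were DEGs at 2 h, 3.97% at 6 h, and 5.62% at 24 h. A count of 1 in so small a group does not set it apart from these shares. DEGs passed an adjusted p of 0.05 in limma (Benjamini-Hochberg over all genes tested), and all fold changes are on the log2(signal + 0.5) scale. Overlap, here and below, describes the values of single libraries. The share of all genes without overlap was not counted for any comparison, and with groups this small a lack of overlap is no test. The median log2 fold change of the 10 genes was 0.22, 0.14, and 0.27, against 0.01, -0.0034, and -0.02 for all genes tested. Under quantile normalization the median at 2 h was -0.14.

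Myocd had a signal of 15.7 and 29.8 in the untreated Cn-Ctl libraries and of 100.2, 104, and 85.8 at 2 h of Ang-II. It was back at 29, 41.3, and 26.2 at 6 h, and at 47.7 and 31.2 at 24 h. Every library at 2 h stood above every untreated one and above all those at later times. The rise at 2 h was 2.13 ± 0.43 (log2 fold change ± SE, adjusted p 0.00296), and without untreated replicate 2 it was not a DEG (adjusted p 0.114). From 2 h to 24 h, 0 of the 10 genes were DEGs (7.37% of all genes), Myocd being the nearest at -1.31 ± 0.43 (adjusted p 0.0685). In that comparison 1 gene had an unadjusted p under 0.05, and edgeR called 0 and DESeq2 1.

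Cnn1 went from 949.8 and 1005 in untreated Cn-Ctl to 2063, 1728, and 1228 at 2 h, 1566, 1586, and 2238 at 6 h, and 2428 and 1490.0 at 24 h. All 8 treated libraries lay above both untreated ones. The log2 fold changes were 0.74 ± 0.25 (adjusted p 0.0797), 0.86 ± 0.25 (adjusted p 0.0515), and 0.96 ± 0.27 (adjusted p 0.0379), and only the last was a DEG. That call was lost without either untreated library or 24 h replicate 2 (adjusted p 0.156 to 0.233), and the estimate ran from 0.61 to 1.31 over all 4 fits without 1 library. It was also lost under quantile normalization (0.76, adjusted p 0.0789) and when only the groups compared entered the fit (adjusted p 0.221). At 6 h, Cnn1 was called by edgeR (adjusted p 0.0498), DESeq2 (adjusted p 0.00599), and limma with a mean signal of at least 5 (adjusted p 0.0351). At 2 h, DESeq2 called it (adjusted p 0.0198). The other alternatives that kept all libraries did not call it at these times.

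Des was at 158 and 105 in untreated Cn-Ctl and at 268, 247, and 583 at 6 h, so the groups did not overlap and 6 h replicate 3 stood far above its fellows. The log2 fold change was 1.39 ± 0.38 (adjusted p 0.0373). It was lost without that library or either untreated one (adjusted p 0.0975 to 0.39), under quantile normalization (adjusted p 0.063), and when only the groups compared entered the fit (adjusted p 0.165). A summed list of skeletal muscle markers, tissue that also expresses desmin, read 311, 8.43, and 42 in the same 3 libraries. The library highest in these markers was not the one highest in Des, and their part in the Des result was not tested.

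The other Cn-Ctl values did not pass. Acta2 was 14592 and 14995 untreated and 26029 and 14373 at 24 h, and Tagln was 6392 and 5527 against 12424 and 6690.2. In both genes the high value at 24 h was that of replicate 2. Summed smooth muscle markers in the 24 h pair were 59305 in replicate 2 and 33312 in replicate 3, and adipocyte markers 892 and 3072, and their part in these values was not tested. Myh11 ran from 3819 to 6780.3 over all 10 Cn-Ctl libraries. Mylk was 1986 and 2105 untreated and 1669 and 1184 at 24 h (-0.54, adjusted p 0.143).

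In SM-Cn-/- aortas, 0 of the 10 genes were DEGs in limma at 2, 6, or 24 h of Ang-II, where 1.13%, 2.34%, and 0.79% of all genes were. At an unadjusted p under 0.05 there were 1, 2, and 3 genes at these times. The edgeR test called 0 at each time, and DESeq2 called 1 at 2 h and 0 later. The median log2 fold changes of the 10 genes were 0.20, 0.27, and 0.05. Without 1 library they ran from 0.077 (2 h replicate 3) to 0.304 (2 h replicate 2) at 2 h, and from 0.0093 (24 h replicate 2) to 0.115 (untreated replicate 2) at 24 h.

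Myocd in SM-Cn-/- was at 53.2, 32.5, and 17 untreated and at 35.1, 30.7, and 42.3 at 2 h. All 3 libraries at 2 h lay inside the untreated range, and the log2 fold change was 0.21 with a 95% interval of -0.60 to 1.01. Cnn1 was 869, 857, and 726 untreated, 846, 803, and 1182 at 2 h, 1009, 1227, and 1234 at 6 h, and 730.0, 774, and 862 at 24 h. Only the 6 h libraries lay above all untreated ones, without passing the test.

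Synpo2 was at 764, 747, and 587 in untreated SM-Cn-/-, at 1328, 1177, and 1045 at 2 h, and at 742, 671, and 590.3 at 24 h. The libraries at 2 h lay above all of the others, with a log2 fold change from untreated of 0.76 ± 0.22 (adjusted p 0.1). From 2 h to 24 h it fell by 0.82 on the log2 scale (SE 0.22, adjusted p 0.0358), the single DEG of 10 in a comparison where 3.65% of all genes were DEGs. Without 1 library this call was lost in 5 of 6 fits (adjusted p 0.0565 to 0.195; every library but 2 h replicate 3). Smtn was at 294, 378, and 601 at 2 h and at 629.8, 698, and 683 at 24 h, above it in all libraries, without passing (0.72, adjusted p 0.0865).

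**Figure D2:**
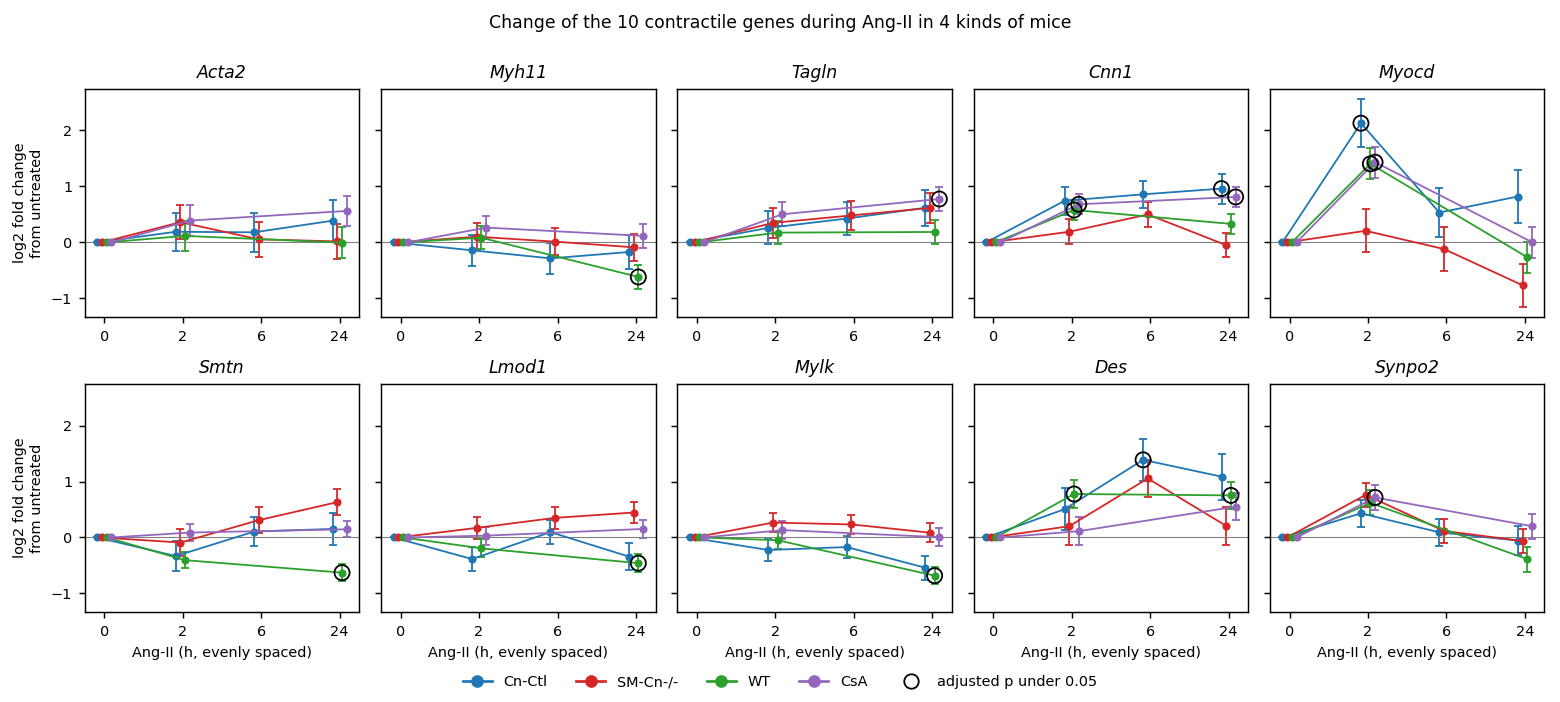
Log2 fold change of each gene against the untreated libraries of its own group (y axis) by hours of Ang-II (x axis), for Cn-Ctl, SM-Cn-/-, WT, and CsA, with SE as error bars and black rings where the adjusted p was under 0.05. Myocd is ringed at 2 h in Cn-Ctl (2.13), WT (1.40), and CsA (1.43) and not in SM-Cn-/- (0.21).

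Compared directly, untreated SM-Cn-/- and Cn-Ctl aortas differed in 0 of the 10 genes in limma, where 0.0139% of all genes were DEGs. The median log2 difference, SM-Cn-/- over Cn-Ctl, was -0.25, and 8 of 10 genes had the lower mean in SM-Cn-/-. Mylk stood lowest against its error, at 1129, 1500.2, and 1419 in SM-Cn-/- against 1986 and 2105 (-0.61 ± 0.19, adjusted p 0.626). It was the 1 gene with an unadjusted p under 0.05, and edgeR called 0 and DESeq2 1. Acta2 did not overlap either, at 11496, 11629, and 9710.0 against 14592 and 14995.

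At 2 h of Ang-II, Cnn1 and Myocd were lower in SM-Cn-/- than in Cn-Ctl, 2 of 10 where 3.7% of all genes were DEGs. Cnn1 stood at 846, 803, and 1182 against 2063, 1728, and 1228, a log2 difference of -0.82 ± 0.22 (adjusted p 0.0385). Myocd stood at 35.1, 30.7, and 42.3 against 100.2, 104, and 85.8, a log2 difference of -1.42 ± 0.39 (adjusted p 0.0415). Neither pair of groups overlapped. Both calls were lost under quantile normalization (Cnn1 -0.35, adjusted p 0.533; Myocd -1.23, adjusted p 0.135). When only the groups compared entered the fit, that of Cnn1 was lost (adjusted p 0.0881). Cnn1 was also lost in 4 of 6 fits without 1 library (replicates 1 and 2 of either group, adjusted p 0.147 to 0.269) and Myocd in all 6 (adjusted p 0.0555 to 0.186), with Myocd between -1.54 and -1.31.

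At 6 h, 0 of 10 genes differed between genotypes in limma (1.98% of all genes), with 1 at an unadjusted p under 0.05 and 0 in edgeR and 1 in DESeq2. Cnn1 was nearest at -0.62 (adjusted p 0.169). At 24 h, Cnn1 was at 730.0, 774, and 862 in SM-Cn-/- against 2428 and 1490.0, a log2 difference of -1.27 ± 0.25 (adjusted p 0.00317). It was the single DEG of 10 in limma, where 4.94% of all genes were DEGs, and was not called when only the groups compared entered the fit (adjusted p 0.0577). The edgeR and DESeq2 tests called 2, the second being Acta2, at 12409, 10827, and 10009 against 26029 and 14373, without overlap. Acta2 had a log2 difference of -0.81 in limma (adjusted p 0.211, and 0.0419 with a mean signal of at least 5), -0.86 in edgeR (adjusted p 0.0187), and -0.88 in DESeq2 (adjusted p 0.00011). For Cnn1, the difference without Cn-Ctl 24 h replicate 2 was still negative and not called (adjusted p 0.0536). It ran from -1.63 to -0.92 over the 5 fits without 1 library. Smtn, Lmod1, and Mylk overlapped between the genotypes at this time.

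The response to Ang-II itself, SM-Cn-/- minus Cn-Ctl, differed for 0 of the 10 genes in limma at 2, 6, and 24 h, where 0.513%, 0.0624%, and 0.513% of all genes were DEGs. At an unadjusted p under 0.05 there were 1, 0, and 4 genes. The edgeR test called 0 at each time, and DESeq2 called 1 at 2 h and 0 later. For Myocd at 2 h the difference was -1.92 ± 0.58 (95% interval -3.13 to -0.72, adjusted p 0.238), and for Cnn1 at 24 h -1.01 (-1.73 to -0.29, adjusted p 0.224). So a gene that passed in Cn-Ctl and not in SM-Cn-/- was not thereby shown to respond differently.

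Endothelial markers were higher in SM-Cn-/- without overlap at all times but 6 h. Their summed signal was 332 to 442 in untreated Cn-Ctl and 576 to 773 in SM-Cn-/-, 312 to 550.3 and 693 to 865 at 2 h, 539 to 620.3 and 609 to 1336 at 6 h, and 504 to 526 and 1139 to 1191 at 24 h. Adipocyte markers overlapped in untreated aortas (921 to 1490.1 and 827 to 3755). Macrophage (78.1 to 112 and 140 to 256) and cardiac markers (14.8 to 30.2 and 35.0 to 85.1) did not, and were higher in untreated SM-Cn-/-. The same held for the low sums of skeletal muscle (11.7 to 15.5 and 17.1 to 37.5) and mesothelial markers (1.75 to 2.19 and 3.06 to 37.9). The part of these cells in the values of Cnn1 and Myocd was not tested.

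**Figure D3:**
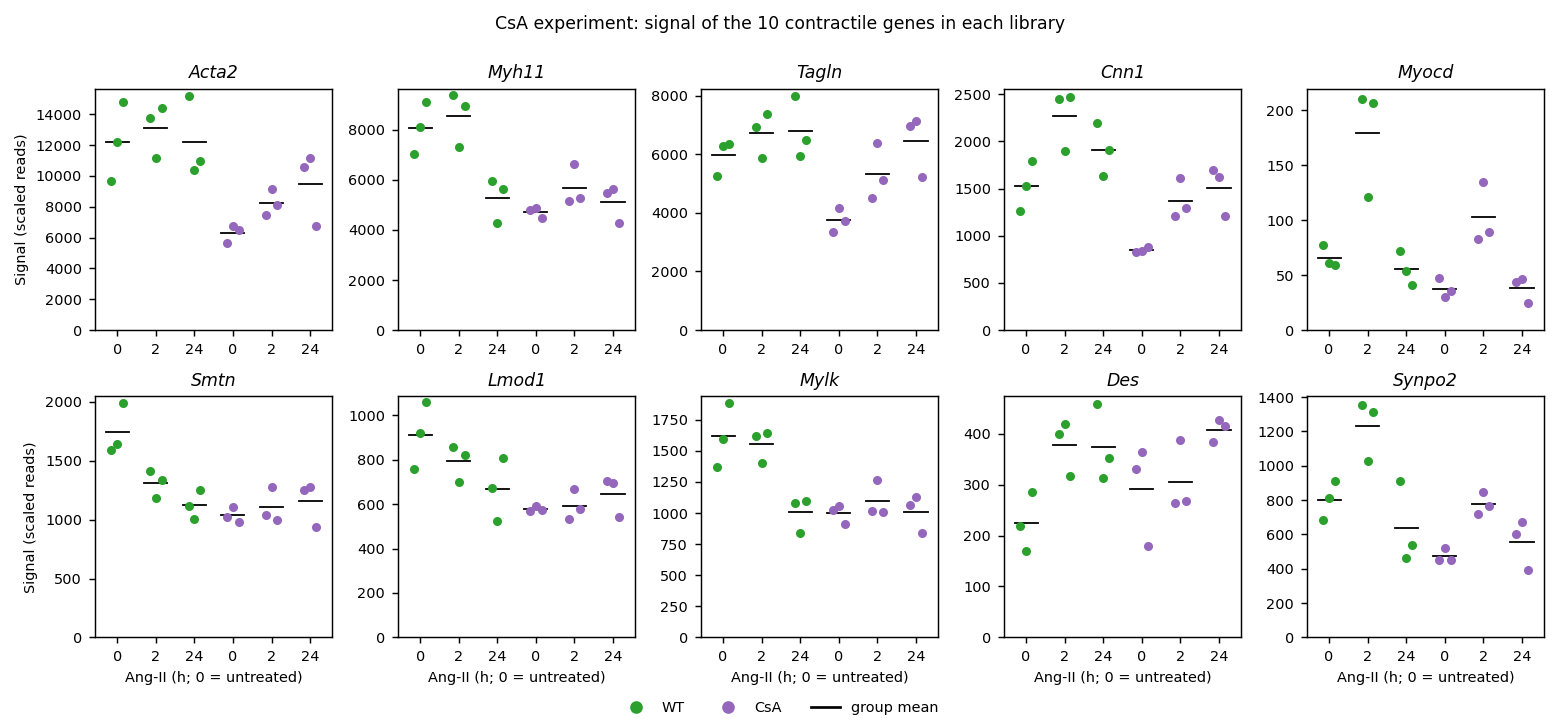
Signal (scaled reads, linear axis from 0) of each gene in each library of the CsA experiment, by hours of Ang-II (0 is untreated), for WT and CsA, with group means as lines. In untreated aortas the 3 CsA libraries lie below the 3 WT libraries for 9 of the 10 genes, Des being the exception, and the groups overlap for all 10 genes at 24 h. The share of all genes that separated in this way was not counted.

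In WT aortas of the CsA experiment, 2 h of Ang-II raised Cnn1, Myocd, and Des, 3 of 10 where 21.4% of all genes were DEGs. Myocd went from 77.1, 61.4, and 59.3 to 210.2, 121, and 207 (1.40 ± 0.28, adjusted p 0.00188), without overlap, and it was a DEG in all 6 fits without 1 library. Cnn1 went from 1260.5, 1527, and 1791 to 2449, 1895, and 2473 (0.58 ± 0.18, adjusted p 0.0269). Des went from 218, 169, and 285 to 399, 419, and 318 (0.78 ± 0.24, adjusted p 0.0321). Cnn1 and Des did not overlap between groups either. Each of the 2 lost its call in 4 of 6 fits without 1 library (Cnn1 without replicates 1 and 2 untreated and 1 and 3 treated, Des without replicates 1 and 2 of either group; adjusted p 0.0671 to 0.133 and 0.0815 to 0.153). Both were lost under quantile normalization (Cnn1 0.16, adjusted p 0.338; Des 0.46, adjusted p 0.203), and Cnn1 when only the groups compared entered the fit (adjusted p 0.0615). Synpo2 missed the threshold (0.62, adjusted p 0.0618), at 686, 812, and 908 against 1355, 1028, and 1314. So did Smtn in the other direction (-0.41, adjusted p 0.0602), from 1591, 1639, and 1993 to 1410.4, 1184, and 1339, without overlap. Smtn was called lower by edgeR (adjusted p 0.0496), DESeq2 (adjusted p 0.0218), the stricter filter (adjusted p 0.0462), and quantile normalization (-0.85, adjusted p 5.2e-05).

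After 24 h of Ang-II in WT, 5 of 10 genes were DEGs, where 35% of all genes were. Myh11 and the kinase gene Mylk were both lower. Myh11 went from 7022, 8104, and 9098 to 5945, 4263, and 5642 (-0.62 ± 0.21, adjusted p 0.0308), and Mylk from 1369, 1594, and 1885 to 1081, 837, and 1098 (-0.68 ± 0.16, adjusted p 0.00303). Neither gene overlapped between its groups. The actin-associated Smtn fell from 1591, 1639, and 1993 to 1118, 1003, and 1252 (-0.63 ± 0.15, adjusted p 0.00343), also without overlap. Lmod1 was lower as well (757, 920.1, and 1058 against 674, 522, and 805; -0.46 ± 0.16, adjusted p 0.0356), with 1 treated library inside the untreated range. Des was higher, at 459, 313, and 352 (0.75 ± 0.24, adjusted p 0.0252). Acta2 and Tagln overlapped between untreated and 24 h libraries.

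Mylk and Smtn were DEGs in WT at 24 h in all 6 fits without 1 library. Myh11 lost its call in 3 (untreated replicates 2 and 3, treated 2; adjusted p 0.0798 to 0.144), Des in 3 (untreated 1 and 2, treated 1; 0.0596 to 0.125), and Lmod1 in 4 (untreated 2 and 3, treated 1 and 2; 0.0633 to 0.198). When only the groups compared entered the fit, Myh11 (adjusted p 0.106) and Lmod1 (adjusted p 0.073) were not called. Markers of other cells were higher at 24 h without overlap: macrophage markers went from 92.6 to 135 untreated to 242 to 356, adipocyte markers from 669 to 1249 to 1608 to 1892, and endothelial markers from 383 to 647 to 690.5 to 824. Their part in the lower Myh11, Mylk, Smtn, and Lmod1 was not tested.

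From 2 h to 24 h in WT, 4 of 10 genes fell, where 36.2% of all genes were DEGs. Myocd fell by 1.67 on the log2 scale (SE 0.28, adjusted p 0.000273), from 210.2, 121, and 207 to 71.7, 54.1, and 41.4. Synpo2 fell by 1.00 (SE 0.22, adjusted p 0.00255), to 909, 463, and 537. Myh11 (-0.70 ± 0.21, adjusted p 0.0157) and Mylk (-0.63 ± 0.16, adjusted p 0.00488) were the others. The groups did not overlap for any of the 4. Myh11 lost its call without 2 h replicate 1 or 3 or 24 h replicate 2 (adjusted p 0.0539 to 0.081) and when only the groups compared entered the fit (adjusted p 0.105). Mylk lost its call under quantile normalization (-0.14, adjusted p 0.411).

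In CsA aortas, 2 h of Ang-II raised Cnn1, Myocd, and Synpo2, 3 of 10 where 20.1% of all genes were DEGs, and all 10 estimates were positive (median 0.33, but -0.16 under quantile normalization). Myocd went from 47.8, 29.7, and 35.2 to 83.3, 135, and 89.7 (1.43 ± 0.28, adjusted p 0.00246). Cnn1 went from 832, 836, and 884 to 1209, 1616, and 1295 (0.68 ± 0.18, adjusted p 0.0133), and Synpo2 from 449, 520.3, and 449 to 717, 846, and 765 (0.71 ± 0.22, adjusted p 0.0345). All 3 were without overlap. Myocd was a DEG in all 6 fits without 1 library, Cnn1 in all but that without 2 h replicate 2 (adjusted p 0.0725), and Synpo2 only without 2 h replicate 1 (0.0515 to 0.118 in the others). Under quantile normalization, Cnn1 (0.27, adjusted p 0.096) and Synpo2 (0.45, adjusted p 0.138) were not called. In the same libraries macrophage markers went from 243 to 316 untreated to 137 to 150.0, and cardiac markers from 134 to 1539.8 to 29.6 to 81.5, both without overlap. Their part in the higher contractile signal was not tested.

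After 24 h in CsA aortas, Tagln and Cnn1 were higher, 2 of 10 where 8.98% of all genes were DEGs. Tagln went from 3359, 4171, and 3707 to 6971, 7146, and 5223 (0.77 ± 0.21, adjusted p 0.0326), and Cnn1 from 832, 836, and 884 to 1697, 1624, and 1206 (0.81 ± 0.18, adjusted p 0.0109). Neither overlapped. Cnn1 lost its call without 24 h replicate 1 or 2 (adjusted p 0.0501 and 0.0567), and Tagln in every fit but that without 24 h replicate 3 (0.0576 to 0.122). Tagln was also lost under quantile normalization (0.23, adjusted p 0.261) and when only the groups compared entered the fit (adjusted p 0.136). From 2 h to 24 h, Myocd fell by 1.43 (SE 0.28, adjusted p 0.00295) to 44, 46.1, and 24.9, the single DEG of 10 where 18% of all genes were.

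Of the 26 comparisons, that of untreated CsA with untreated WT aortas called the most of the group. In it, 9 of the 10 genes were lower in CsA, where 25.2% of all genes were DEGs in either direction. The median log2 difference, CsA over WT, was -0.75, against -0.02 for all genes tested. The 3 CsA libraries lay below the 3 WT libraries for each of the 9, and the share of all genes without overlap was not counted. The difference joins the drug and its pump.

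Of the actin set, Acta2 was 9673, 12206, and 14795 in WT and 5679, 6748, and 6480.1 in CsA (-0.94 ± 0.27, adjusted p 0.0206). Tagln was 5258, 6285, and 6333 against 3359, 4171, and 3707 (-0.67 ± 0.21, adjusted p 0.0293). Cnn1 was 1260.5, 1527, and 1791 against 832, 836, and 884 (-0.83 ± 0.18, adjusted p 0.00391). Each CsA value was below the lowest WT value. Smtn was 1591, 1639, and 1993 against 1025, 1105, and 978 (-0.74 ± 0.15, adjusted p 0.00281), and Lmod1 757, 920.1, and 1058 against 569.6, 590.3, and 573 (-0.65 ± 0.16, adjusted p 0.00921).

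Of the motor and its kinase, Myh11 was 7022, 8104, and 9098 in WT and 4779.8, 4858, and 4475 in CsA (-0.77 ± 0.21, adjusted p 0.0146). Mylk was 1369, 1594, and 1885 against 1028, 1058, and 912 (-0.68 ± 0.16, adjusted p 0.00578). Both were lower in all CsA libraries. Synpo2 was 686, 812, and 908 against 449, 520.3, and 449 (-0.76 ± 0.22, adjusted p 0.0225), and Myocd 77.1, 61.4, and 59.3 against 47.8, 29.7, and 35.2 (-0.82 ± 0.28, adjusted p 0.0414).

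Des was the exception, at 218, 169, and 285 in WT and 331, 363, and 179 in CsA (0.34 ± 0.24, adjusted p 0.316). A summed list of cardiac muscle markers, tissue that also expresses desmin, read 976, 1539.8, and 134 in the 3 CsA libraries, in the same order, and 369.8, 118, and 53 in WT. The CsA library low in these markers was also low in Des, whereas the WT library lowest in them (53) was the highest in Des (285). The part of these markers was not tested.

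Without 1 library the count of genes called ran from 3 (WT replicate 3) to 8 (WT replicate 1 or CsA replicate 2). The call for Cnn1, Mylk, and Smtn held in all 6 such fits. Without 1 library, Acta2 (adjusted p up to 0.0891), Tagln (0.0996), and Synpo2 (0.0903) lost theirs in 4 fits, Myh11 (0.0629) in 2, Lmod1 (0.0523) in 1, and Myocd (0.135) in 5. For Acta2, Tagln, and Synpo2 these libraries were WT replicates 2 and 3 and CsA replicates 1 and 3, for Myh11 replicate 3 of either group, for Lmod1 WT replicate 3, and for Myocd all but CsA replicate 1. No estimate over these fits was nearer to 0 than -0.53.

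Markers of some other cell types were higher in untreated CsA, and those of others overlapped. Adipocyte markers summed to 669 to 1249 in untreated WT and 3863 to 6372 in untreated CsA, and 6 of 7 were DEGs and higher in CsA. Endothelial markers summed to 383 to 647 and 1007 to 1178 (7 of 7 higher), and macrophage markers to 92.6 to 135 and 243 to 316 (6 of 6 higher). Mesothelial markers summed to 18.3 to 25.7 and 49.0 to 137. Fibroblast markers overlapped, at 1012 to 1688 and 1412 to 1607 (0 of 7 DEGs in limma, 0 at an unadjusted p under 0.05). Cardiac, skeletal muscle, Schwann cell, and blood sums overlapped as well, and the mean blood sum was lower in CsA (201 in WT, 135 in CsA). The 14 smooth muscle markers, which share genes with the group, summed to 33875 to 45651 in WT and 21822 to 24338 in CsA. The part of the other cell types in the lower contractile signal was not tested.

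**Figure D4:**
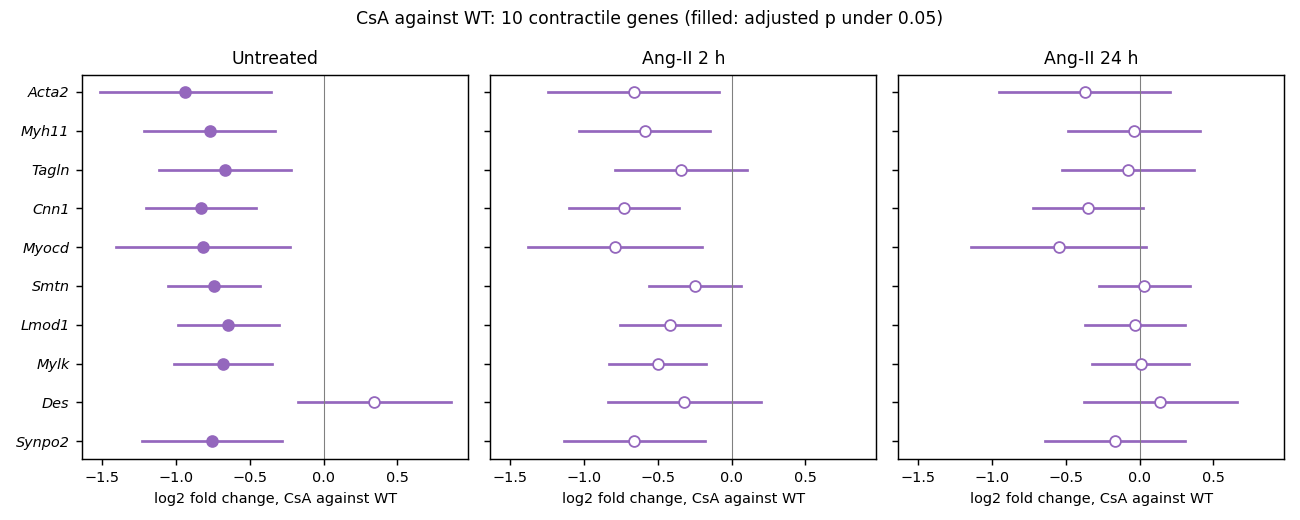
Log2 difference of each gene between CsA and WT aortas (x axis, 95% interval as bars) in untreated mice and after 2 and 24 h of Ang-II, with filled points where the adjusted p was under 0.05. All points but that of Des lie below 0 and are filled in untreated aortas (median -0.75), all lie below 0 and are open at 2 h (median -0.55), and the median is -0.06 at 24 h.

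After 2 h of Ang-II, all 10 genes had the lower mean in CsA (-0.79 to -0.25, median -0.55), but 0 were DEGs in limma, where 1.33% of all genes were. At an unadjusted p under 0.05 there were 7, and edgeR called 0 and DESeq2 5. Cnn1 was nearest in limma (-0.73, adjusted p 0.0552), at 1209, 1616, and 1295 in CsA against 2449, 1895, and 2473 in WT, without overlap. After 24 h, 0 of 10 were DEGs in limma (5.58% of all genes), 0 had an unadjusted p under 0.05, and edgeR and DESeq2 called 0. Summed adipocyte markers still differed without overlap at 2 h (992 to 1639 in WT, 1945 to 5376 in CsA) and at 24 h (1608 to 1892 and 2304 to 6633), and their part was not tested. Endothelial markers did not overlap at 2 h (579.6 to 630.4 in WT, 825 to 1034 in CsA) and did at 24 h (690.5 to 824 and 801 to 1384). The median at 24 h, -0.06, ran from -0.19 (without WT replicate 2) to 0.077 (without CsA replicate 3).

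The response at 2 h, CsA minus WT, differed for 0 of 10 genes in limma (0.146% of all genes), with 1 at an unadjusted p under 0.05 and 0 in edgeR and DESeq2. At 24 h it differed for Smtn, 1 of 10 where 9.42% of all genes were DEGs. Smtn went from 1591, 1639, and 1993 to 1118, 1003, and 1252 in WT and from 1025, 1105, and 978 to 1254, 1274, and 940.1 in CsA, so 3 of 3 WT libraries fell below the untreated ones and 2 of 3 CsA libraries lay above the untreated CsA ones. The difference was 0.78 ± 0.21 (adjusted p 0.0297), between 0.67 and 0.92 over the 12 fits without 1 library, of which 7 lost the call (adjusted p 0.053 to 0.0855; WT untreated 2 and 3, WT 24 h 2, CsA untreated 1 and 3, CsA 24 h 1 and 2). Mylk (0.69, adjusted p 0.0604), Lmod1 (0.61, adjusted p 0.0974), and Myh11 (0.73, adjusted p 0.126) missed the threshold, and the median of the 10 was 0.59. These responses share the untreated libraries with the CsA against WT comparison above.

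To separate a shift of the whole group from that of single genes, each gene was also set against the mean of the other 9 in the same library. Myocd in Cn-Ctl stood at -6.64 and -5.58 (log2) relative to the others in untreated libraries and at -4.20, -4.11, and -3.98 at 2 h, again without overlap. In SM-Cn-/- the means were -5.33 and -5.38. In WT it went from -4.88 to -3.66 and in CsA from -5.06 to -3.95. The mean relative level of Cnn1 was 0.14, 0.44, and 0.71 in WT at 0, 2, and 24 h, and -0.05, 0.22, and 0.48 in CsA. It was -0.04, 0.43, 0.56, and 0.70 in Cn-Ctl at 0, 2, 6, and 24 h, and -0.11, -0.18, 0.11, and -0.28 in SM-Cn-/-. Des stood at -2.95 in untreated WT and -1.84 in untreated CsA. Other genes fell: from untreated to 2 h in Cn-Ctl, Lmod1 went from -0.23 to -1.02 and Smtn from -1.09 to -1.81. Mylk went from 1.14 to 0.54 and Myh11 from 2.80 to 2.29 there, and Smtn in WT from 0.36 to -0.43. A rise of Myocd itself lowers the relative values of the other 9. These relative values are descriptions, with no test.

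**Figure D5:**
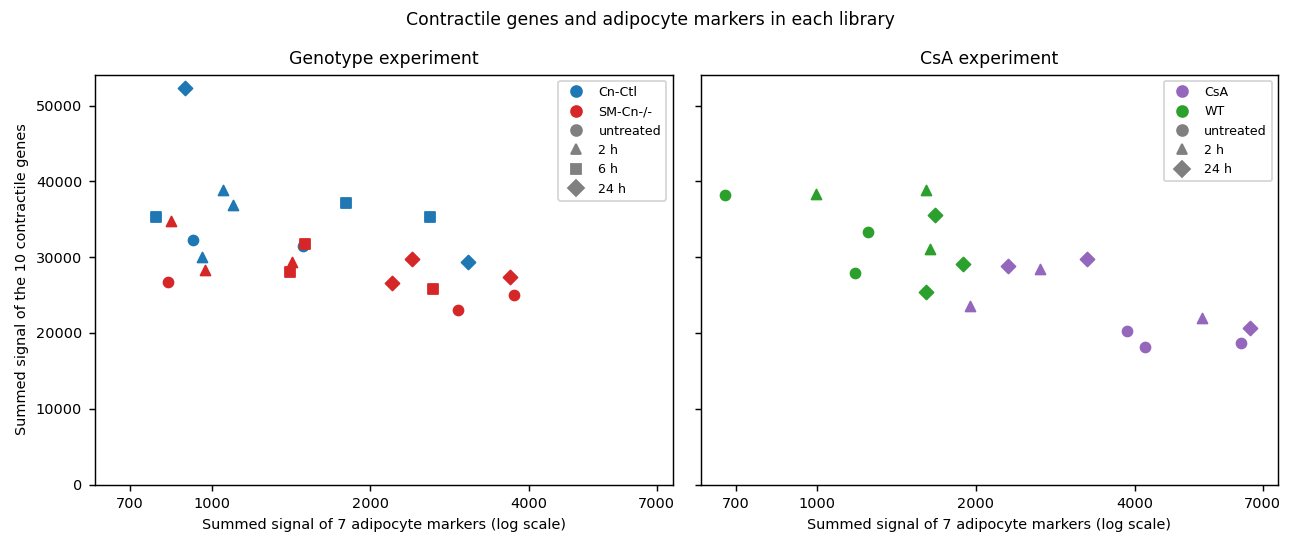
Summed signal of the 10 contractile genes (y axis) against the summed signal of 7 adipocyte markers (x axis, log scale) in each library of both experiments, with marker shape for hours of Ang-II. The untreated CsA libraries lie at 18101 to 20280.0 on the y axis and 3863 to 6372 on the x axis, the untreated WT libraries at 27913 to 38206 and 669 to 1249.

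Across libraries the contractile genes varied together more closely in the CsA experiment. The 45 pairs of genes had a median Pearson r of 0.620 over 18 libraries (-0.208 to 0.979, the highest for Myh11 with Mylk), and of 0.383 over 22 libraries in the genotype experiment (-0.435 to 0.775). The libraries share groups and scaling, so these are descriptions. Des was the least tied in the CsA experiment, with a median r of 0.086 to the other 9. The summed adipocyte markers had an r with the mean of the group of -0.812 in the CsA experiment and -0.542 in the genotype experiment, endothelial markers -0.747 and -0.337, and macrophage markers -0.650 and -0.107. The genes outside the group closest to its mean were Flna (r 0.976), Mark1 (0.957), Dstn (0.956), Coro1c (0.946), and Efhd1 (0.945) in the CsA experiment, among 10789 genes. In the genotype experiment they were Csrp1 (0.908), Ptgis (0.822), Flna (0.803), Mcam (0.800), and Vasp (0.800), among 10709.

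Other genes of the pathway were read from lists of their own. Of 28 contractile and cytoskeletal genes, 22 were lower and 1 higher in untreated CsA than in untreated WT, where 25.2% of all genes were DEGs, and 3 were lower at 2 h (1.33% of all genes). At 24 h, 0 were DEGs in limma (5.58% of all genes) and 6 had an unadjusted p under 0.05. The furthest of them in untreated CsA were Itga8, an integrin of contractile smooth muscle (-0.97 ± 0.21, adjusted p 0.0044), and Ppp1r12b, a targeting subunit of myosin phosphatase (-0.89 ± 0.17, adjusted p 0.00231). After 24 h of Ang-II, 9 fell and 2 rose in WT, a share close to the 35% of all genes, and 1 fell and 5 rose in CsA (8.98% of all genes). The response differed for 4 of them (9.42% of all genes), Itga8, Myl9, Ppp1r12a, and Ppp1r12b, each more positive in CsA. After 2 h, 4 rose and 1 fell in Cn-Ctl (6.23% of all genes), and 0 of 28 were DEGs in SM-Cn-/- in limma (1.13% of all genes), with 6 at an unadjusted p under 0.05. Between genotypes, 3 were lower in SM-Cn-/- at 2 h (Ldb3, Pdlim3, and Rock2, where 3.7% of all genes were DEGs) and 4 at 24 h (Actg2, Ldb3, Tpm1, and Vcl, where 4.94% were). Actg2, the enteric smooth muscle actin, differed at 24 h by -1.13 ± 0.20 (adjusted p 0.0013), and as a close paralogue of Acta2 it may exchange reads with it. The exact CArG box stood in 6 of 31 promoter windows of this list (19.4%), and one with at most 1 mismatch in 9 (29.0%).

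Of 22 regulators of the contractile state, Srf was 109, 122, and 142 in untreated WT and 97.7, 88.4, and 89.2 in CsA, and lower in CsA at each time (-0.43, adjusted p 0.0099; -0.49, adjusted p 0.04; -0.40, adjusted p 0.041). In all, 1 of the 22 was higher and 7 lower in untreated CsA, where 25.2% of all genes were DEGs. Klf4, a transcription factor that represses contractile genes in cultured smooth muscle cells, was 36.9 and 37.1 in untreated Cn-Ctl and 156, 203, and 151 at 2 h (2.17 ± 0.25, adjusted p 4.9e-06). In SM-Cn-/- it was 51.7, 53.7, and 52 and then 55.4, 70, and 61.3 (0.24, adjusted p 0.67). The difference in response of Klf4 was -1.94 ± 0.33 (adjusted p 0.0061). In WT, Klf4 rose from 45.4, 36.4, and 45.4 to 121, 135, and 143 (1.64), and in CsA from 75.1, 62, and 65.7 to 114, 122, and 91.8 (0.68), a difference of -0.96 (adjusted p 0.04). Of Mkl1 and Mkl2, which encode the myocardin-related factors, Mkl1 rose in CsA at 2 h (0.51 ± 0.12, adjusted p 0.0066), and Mkl2 fell in WT at 24 h (-0.28 ± 0.10, adjusted p 0.037) and was higher in SM-Cn-/- than in Cn-Ctl at 6 h (0.75 ± 0.20, adjusted p 0.0497).

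Of 14 genes associated with the synthetic state, 7 rose and 1 fell at 2 h in Cn-Ctl, where 6.23% of all genes were DEGs, and 0 were DEGs in SM-Cn-/- in limma (1.13% of all genes), with 4 at an unadjusted p under 0.05. At 24 h, 9 rose and 2 fell in WT (35% of all genes), and 9 rose and 0 fell in CsA (8.98% of all genes). Thbs1, the matricellular protein thrombospondin-1, rose by 3.08 ± 0.41 in Cn-Ctl at 2 h (adjusted p 2.9e-05), by 3.44 ± 0.37 in WT at 24 h (adjusted p 5.6e-06), and by 1.96 ± 0.37 in CsA at 24 h (adjusted p 0.005). Tpm4, a nonmuscle tropomyosin, rose by 1.40 ± 0.17 in Cn-Ctl at 2 h (adjusted p 1.2e-05) and by 1.58 ± 0.14 in WT at 24 h (adjusted p 9.1e-07), and Eln, elastin, by 1.10 ± 0.25 in Cn-Ctl at 2 h (adjusted p 0.00795).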

How the data were processed

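Mouse aortic RNA was sequenced from oligo-dT libraries and, per the labels and the study's methods, the authors aligned reads with Bowtie 0.12.7 and quantified genes with RSEM 1.16 on GRCm38 (submitters' processing notes). The deposited values are a signal, the read number plus 0.5 divided by a scaled library size. The scaling method is not given in the sources used here, nor is strand in counting. Whole reads were recovered from 100% of values (tolerance 0.1). Each table was fitted on its own, over all groups, with limma 3.58.1 (trend) on log2(signal + 0.5) for genes with signal of at least 1 in at least 2 libraries, 14424 and 13738 protein-coding genes, with Benjamini-Hochberg adjustment. In the genotype experiment the authors had discarded 1 library as an outlier. Levels per kb used exon lengths of GENCODE M21. The steps were tested on simulated data. Alternatives were edgeR 4.0.16 and DESeq2 1.42.0 on recovered reads, other scalings, filters and pseudocounts, a replicate block, and leaving out each library. The rule for names took all 10 genes, at most 5 list genes per comparison with the largest change among those that passed, and Srf, Mkl1, Mkl2, and Klf4 always. The genes and lists were chosen with earlier results of these data known.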

Additional observations from a re-analysis of the deposited data

Results flagged for a closer look

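The response to 24 h of Ang-II, CsA minus WT, differed for Smtn by 0.78 (log2), with -0.63 in WT and 0.15 in CsA, by the test of the difference itself. The response of Klf4 was smaller in SM-Cn-/- than in Cn-Ctl at 2 h (-1.94), smaller in CsA than in WT at 2 h (-0.96), and smaller in CsA than in WT at 24 h (-0.68), also by that test. Untreated Klf4 was already higher in CsA (62.0 to 75.1) than in WT (36.4 to 45.4). At 24 h the mean signal was 71.5 in CsA and 71.8 in WT.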

How the results depend on the processing

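Over alternatives that kept all libraries, 2501 of 2600 values for the 10 genes kept direction and side of the threshold. Under quantile normalization the median log2 fold change of the 10 genes was -0.14 in Cn-Ctl at 2 h, 0.50 in Cn-Ctl from 2 to 24 h, 0.032 in SM-Cn-/- from 2 to 24 h, -0.21 in WT at 2 h, -0.16 in CsA at 2 h, and -0.036 in WT from 2 to 24 h. For SM-Cn-/- against Cn-Ctl it was 0.35 at 2 h and 0.018 at 6 h, and 0.47 for the difference in response at 2 h. For CsA against WT it was -0.52 untreated and -0.30 at 2 h. Tagln in WT at 2 h became -0.46 (adjusted p 0.022) and Smtn in CsA at 2 h -0.33 (adjusted p 0.043), the only reversals. This setting moved the median of all genes by -0.0962 to 0.0933, and the cause was not tested. Without 1 library, the median ran from -0.15 (without Cn-Ctl 24 h replicate 2) to 0.69 (without replicate 3) in Cn-Ctl at 24 h, from -0.32 to 0.52 in Cn-Ctl from 2 to 24 h, from -0.67 to 0.21 for SM-Cn-/- against Cn-Ctl at 24 h, and from -0.44 to 0.43 for the difference in response at 24 h, set each time by the same pair of libraries; for that at 6 h it ran from -0.077 to 0.20 with the untreated Cn-Ctl pair. Over all 1750 such values, 84 lost and 17 gained a call. Counts of genes called changed by over 1.5 times as follows. DESeq2 called 2 in Cn-Ctl at 2 h, 2 at 6 h, and 3 at 24 h, 1 in Cn-Ctl from 2 to 24 h, 1 in SM-Cn-/- at 2 h, 1, 1, and 2 for SM-Cn-/- against Cn-Ctl untreated, at 6 h, and at 24 h, 1 for the difference in response at 2 h, 5 in WT at 2 h, 5 for CsA against WT at 2 h, and 5 for the response at 24 h CsA minus WT. Both edgeR and the filter of a mean signal of at least 5 called 2 in Cn-Ctl at 6 h, 2 for SM-Cn-/- against Cn-Ctl at 24 h, and 2 for that last response, and the filter 1 for CsA against WT at 2 h. Quantile normalization called 3 in Cn-Ctl at 2 h and 0 at 6 and 24 h, 0 for SM-Cn-/- against Cn-Ctl at 2 h, 5 in WT at 2 h (without Cnn1 and Des), 1 in CsA at 24 h, 2 in CsA from 2 to 24 h, and 2 for the response at 24 h CsA minus WT. With only the groups compared in the fit, counts were 0 in Cn-Ctl at 6 and 24 h, 1 from 2 to 24 h, 1 in SM-Cn-/- at 6 h, 1 and 0 for SM-Cn-/- against Cn-Ctl at 2 and 24 h, 3 in WT at 24 h, and 1 in CsA at 24 h. With a replicate block the counts were 3 in WT at 24 h, 1 in CsA at 24 h, and 1 in SM-Cn-/- at 2 h. The block also called 8 for CsA against WT untreated, a change below 1.5 times. The main fits did not pair libraries by number. Correlations of same-numbered deviations ran from -0.51 to 0.47 in the genotype and -0.38 to 0.35 in the CsA experiment. Their medians were 0.086 and -0.0050, against -0.078 and 0.00016 for libraries with different numbers. The ranges of same-numbered and other pairs overlapped, so these correlations cannot decide whether libraries were paired. Groups of 2 or 3 pools limit every call, and the genotype experiment is the shallower, which bears most on Myocd, the lowest of the 10.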
